A study of Mus musculus with 2 samples.

Results

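Myc and Il4i1 B cells are splenic B cells that carried 3 or more unique molecular identifiers (UMIs, each standing for 1 captured transcript) of the genes Myc and Il4i1 together. They were picked by counts alone. A barcode needed at least 1000 UMIs, at most 10% of them from mitochondrial genes, at least 3 UMIs of the B cell genes Cd79a, Cd79b and Ms4a1 together, and 0 UMIs of Cd3d, Cd3e and Cd3g. Jchain had to stay under 3 UMIs, and the transitional genes Cd93, Akap12, Sox4 and Cecr2 and the marginal zone genes Myof, S1pr3, Fcrl5, Tm6sf1 and Cd9 at 1 UMI or less per group. These gates left 5781 ALLO and 5640 SYN cells, called B-gated here, of which 402 ALLO and 277 SYN cells held 3 or more Myc and Il4i1 UMIs. In all, 679 of 28962 deposited barcodes were members. The comparator is the set of B-gated cells with 0 such UMIs, 3834 in ALLO and 4023 in SYN, called zero cells.

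The study measured spleen cells of wild-type C57BL/6 recipients of tail skin by droplet single-cell RNA sequencing of the 5′ ends of transcripts. ALLO is 1 library, made after grafts of C57BL/6-Tg(HLAA2.1)1Enge/J skin, which carries a human HLA transgene, at weeks 0 and 5. SYN is 1 library from recipients whose grafts at the same weeks were of wild-type C57BL/6 skin, so both groups underwent anaesthesia with Zoletil 50 and Rompun and the same surgery. Spleens were taken 4 weeks after the second graft, frozen, thawed and passed over a dead cell removal column. The labels give neither age nor sex, and do not say how many animals stand behind a library. With 1 library per group no difference has a replicate check and no test was made. Each comparison is between these 2 libraries, and intervals in parentheses are at 95% and cover counting error only.

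MYC is a transcription factor that B cells switch on within hours of antigen receptor or helper signals. It drives the making of ribosomes, nucleotides and polyamines ahead of division, and binds the E-box sequence CACGTG with its partner MAX. IL4I1 is a secreted L-amino acid oxidase that is induced in B cells by interleukin 4 and CD40 signals. In the spleen, most follicular B cells are resting and express little of either gene.

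Among members, the rule genes set the description and support nothing. Myc stood at 630 CPM (a gene's UMIs in a class of cells scaled to a fixed class total) in ALLO and 586 CPM in SYN members, and Il4i1 at 392 and 515 CPM. At least 1 Myc UMI was seen in 340 of 402 ALLO and 221 of 277 SYN members, and at least 1 Il4i1 UMI in 271 and 201. Both genes were seen in 209 ALLO and 145 SYN members. Just inside the threshold were 172 ALLO and 120 SYN cells with 3 UMIs, and just outside it 397 and 322 cells with 2. The highest sum in a cell was 28 in ALLO and 19 in SYN. In the GENCODE M21 annotation of GRCm38, Myc lies at chr15:61985391-61990374 on the plus strand. Il4i1 lies at chr7:44816387-44840809 on the plus strand and overlaps Nup62 on the same strand, so reads of these genes may be hard to tell apart. Nup62, a nuclear pore gene, was 1.74-fold (1.34 to 2.24) as high in members as in zero cells in ALLO and 1.59-fold (1.19 to 2.11) in SYN.

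Members held more UMIs than zero cells. The median was 4009 UMIs in ALLO members and 2869 in ALLO zero cells, and 3963 in SYN members and 2753 in SYN zero cells. At a fixed 1000 UMIs, members and zero cells gave almost the same number of genes per cell, with medians of 574 and 573 in ALLO and of 589 and 588 in SYN. Cells with 3 or more UMIs of each of 2 heavy chain variable segments, a sign of 2 B cells in a droplet, were 12.9% (9.81 to 16.6%) of ALLO members and 4.54% (3.90 to 5.25%) of ALLO zero cells. In SYN they were 14.1% (10.2 to 18.7%) of members and 5.79% (5.09 to 6.56%) of zero cells. Zero cells weighted to the members' depth had 14.0% in ALLO and 20.8% in SYN. The 15 highest and 12 lowest genes named below kept their direction without these cells.

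Members made up a larger share of B-gated cells in ALLO, at 6.95% (6.31 to 7.64%), than in SYN, at 4.91% (4.36 to 5.51%), a ratio of 1.42 (1.21 to 1.66). The share was highest in the deepest cells of both libraries. Among cells with 7000 UMIs or more, members were 39.0% (31.1 to 47.5%) in ALLO and 28.0% (19.5 to 37.9%) in SYN. Among cells with 2500 to under 3000 UMIs they were 3.18% (2.30 to 4.27%) in ALLO and 2.26% (1.53 to 3.21%) in SYN. Of 9 depth bins, the interval of the ratio lay above 1 in that of 2000 to under 2500 UMIs and took in 1 in the others. The ratio was below 1 from 1500 to under 2000 UMIs, at 0.255 (0.0264 to 1.28). From 5000 to under 7000 UMIs it was also below 1, at 0.850 (0.590 to 1.23). With each cell thinned to 1000 UMIs, at least 1 Myc or Il4i1 UMI was left in 14.4% (13.6 to 15.4%) of ALLO and 12.9% (12.01 to 13.8%) of SYN B-gated cells, a ratio of 1.12 (1.02 to 1.24). That measure also lowers the threshold to 1 UMI. With both libraries weighted to the same depth bins and the threshold of 3 UMIs kept, the ratio lay somewhere within 1.21 to 1.66. That range is the counting interval of the unweighted ratio, so it does not show that the weighted ratio stayed at 1.42.

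**Figure D1:**
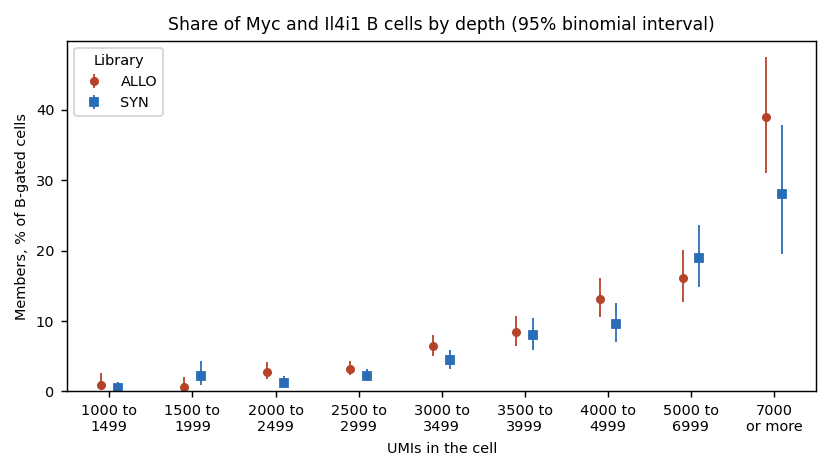
Share of Myc and Il4i1 B cells among B-gated cells (%, vertical) by UMIs in the cell (horizontal), with exact 95% binomial intervals; circles are ALLO and squares SYN. The share is highest in the deepest cells of both libraries, at 39.0% in ALLO and 28.0% in SYN at 7000 UMIs or more.

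The other markers of the cells were not used by the rule, but were chosen with earlier results of these data known. Their values describe the cells and are no independent check of the label. Srm, the spermidine synthase of polyamine synthesis, stood at 134.5 CPM in ALLO members against 30.4 CPM in zero cells, and at 139.4 CPM in SYN members against 31.8 CPM. That is 4.43-fold (3.75 to 5.22) in ALLO and 4.39-fold (3.64 to 5.27) in SYN. Mettl1, the catalytic subunit of a tRNA methyltransferase, was 3.56-fold (2.89 to 4.37) and 4.04-fold (3.16 to 5.13) as high. Bcl2a1b, a gene of the anti-apoptotic A1 proteins, stood at 211.5 CPM in ALLO members against 61.7 CPM in zero cells, and at 205.6 CPM in SYN members against 50.4 CPM. Its ratios were 3.43 (3.03 to 3.88) and 4.08 (3.51 to 4.73). All 3 markers were thus higher in members in both libraries. Pax5, the B lineage factor, was detected and lower in members, at 0.760-fold (0.680 to 0.847) in ALLO and 0.696-fold (0.605 to 0.797) in SYN. Surface activation genes, given further on, were at least 1.5-fold higher in 1 of 14 measured in ALLO and 2 of 14 in SYN. Over all measured genes the shares were 5.54% in ALLO and 6.85% in SYN. These counts are too small to tell whether the cells are activated, and the cells are called by their rule genes.

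In GRCm38, Srm lies at chr4:148591503-148594993 on the plus strand and Mettl1 at chr10:127041414-127046365 on the plus strand, where it overlaps Eef1akmt3. Bcl2a1b lies at chr9:89199209-89207827 on the plus strand and overlaps the predicted gene Gm29094. The A1 genes are near-identical copies, so counts split among them are uncertain.

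Across all genes, members and zero cells were close, with a group of genes far apart. A gene counted as measured where at least 20 UMIs were expected in the smaller class. The median log2 ratio was -0.04 over 7595 measured genes in ALLO and -0.04 over 6522 in SYN. In ALLO, 421 genes (5.54%) were at least 1.5-fold higher and 452 (5.95%) at least 1.5-fold lower in members. In SYN, 447 genes (6.85%) were higher and 503 (7.71%) lower by that size. Of 6522 genes measured in both, 231 were at least 1.5-fold higher in both libraries, out of 328 in ALLO and 447 in SYN. Likewise 156 were lower in both, out of 323 in ALLO and 503 in SYN. The size of 1.5-fold is a description and no test.

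The 15 highest genes had varied roles. After Srm, Bcl2a1b and Mettl1 came Bhlhe40, a basic helix-loop-helix repressor, at 125.5 CPM in ALLO members against 40.6 CPM in zero cells and at 120.5 CPM in SYN members against 33.2 CPM. Ccnd2, the cyclin D2 that acts in early cell cycle entry, stood at 88.6 CPM in ALLO members against 29.7 CPM in zero cells, and at 109.5 CPM in SYN members against 24.9 CPM. These 2 genes leaned most on depth. With zero cells weighted to the members' depth, Ccnd2 was 1.70-fold in ALLO and 2.998-fold in SYN in place of 2.99 and 4.39, and Bhlhe40 2.22-fold in both in place of 3.09 and 3.63.

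Slc7a5, the light chain of a leucine transporter, was 3.10-fold (2.40 to 3.98) as high in members in ALLO and 3.86-fold (2.90 to 5.10) in SYN. Ppan, a factor of large ribosomal subunit assembly, was 2.87-fold (2.39 to 3.45) and 3.68-fold (3.01 to 4.49). Nhp2, a core protein of the H/ACA particles that modify RNA, was 2.63-fold (2.30 to 3.01) and 2.73-fold (2.32 to 3.19). Both ribosome factors were thus higher in each library. The snoRNA host genes Snhg4 and Snhg15, whose introns hold small RNAs that guide RNA modification, were 3.08-fold and 3.51-fold in ALLO and 3.33-fold and 2.80-fold in SYN. Ppa1, the inorganic pyrophosphatase, was 3.19-fold (2.45 to 4.12) and 3.66-fold (2.78 to 4.77). Marcksl1, an actin-binding protein, was 2.66-fold (2.38 to 2.96) and 3.68-fold (3.24 to 4.17). Ppp1r14b, a protein phosphatase 1 inhibitor, was 2.73-fold and 3.32-fold. The mitochondrial genes Atad3a, an inner membrane ATPase, and Timm8a1, an import chaperone, were 2.97-fold and 2.72-fold in ALLO and 2.90-fold and 3.93-fold in SYN.

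The 12 lowest genes also had varied roles. Itgb7, the integrin beta 7 chain, stood at 55.9 CPM in ALLO members against 114.5 CPM in zero cells, and at 54.3 CPM in SYN members against 117.7 CPM. S1pr4, a sphingosine 1-phosphate receptor, was 0.558-fold (0.453 to 0.681) and 0.517-fold (0.406 to 0.650). Cd55, which speeds decay of complement convertases, was 0.579-fold (0.534 to 0.627) and 0.564-fold (0.509 to 0.622). These surface genes were lower in members of both libraries. Tsc22d3, the glucocorticoid-induced leucine zipper gene, was 0.639-fold and 0.594-fold, and Zfp36l2, which promotes mRNA decay, 0.601-fold and 0.581-fold. Cdkn2d, a cyclin-dependent kinase inhibitor, was 0.547-fold (0.430 to 0.689) and 0.494-fold (0.363 to 0.659). The other 6 were B3gnt8, Acp5, Rflnb, Ypel3, Arhgef18 and Cacna1i, at 0.426 to 0.576-fold in ALLO and 0.323 to 0.597-fold in SYN.

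**Figure D2:**
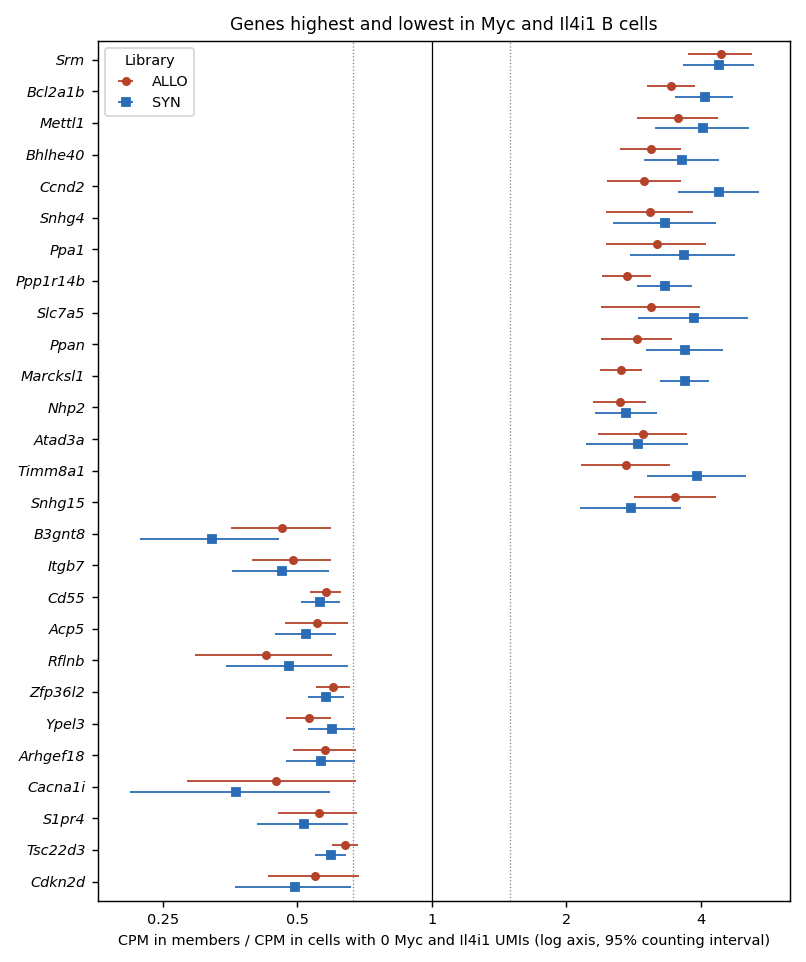
Ratio of CPM in Myc and Il4i1 B cells to CPM in cells with 0 such UMIs (log axis, exact 95% counting intervals) for the 15 highest and 12 lowest genes; circles are ALLO and squares SYN, and dotted lines mark 1.5-fold. Srm leads at 4.43-fold in ALLO and 4.39-fold in SYN, and the 12 lowest genes lie below 1 in both libraries, Tsc22d3 nearest to it at 0.639-fold in ALLO.

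The MYC motif was looked for upstream of these genes in RefSeq promoters of GRCm38.p6. CACGTG reads the same on both strands and was searched in the 250 bases before each start. Of 27025 genes with an entry, 1854 (6.86%) held it. Among the 15 highest genes 9 matched an entry, and 2 of them, Ppa1 and Timm8a1, held the motif. It was found for 1 of 11 of the 12 lowest genes. By list, 1 of 31 ribosome biogenesis genes with an entry held it, 5 of 17 nucleotide synthesis genes and 5 of 13 translation factors. It was found for 1 of 11 polyamine and methyl donor genes and 1 of 19 resting state and egress genes. Bases after the start were not searched. A match describes these letters only. The motif starts at position -140 from the start of Ppa1 and at position -236 from that of Timm8a1. Both windows are shown because they hold it among the genes that stood highest, with CACGTG in capitals.
Ppa1, chr10:61648451-61648516, plus strand: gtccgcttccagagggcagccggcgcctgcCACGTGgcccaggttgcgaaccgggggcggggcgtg
Timm8a1, chrX:134541871-134541920, minus strand: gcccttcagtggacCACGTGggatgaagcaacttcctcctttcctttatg

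Among lists with 5 or more measured genes, ribosome biogenesis had the highest median. Of its 36 genes, 34 were measured in ALLO and 31 of them were at least 1.5-fold higher in members, and 32 were measured in SYN with 31 higher. None was lower by that size. For this list and those below, the share over all measured genes was 5.54% higher and 5.95% lower in ALLO. In SYN it was 6.85% and 7.71%. The median log2 ratio was 0.97 in ALLO and 1.08 in SYN, beside -0.04 over all measured genes in each. Summed, the list took 5246 CPM in ALLO members against 2723 CPM in zero cells, and 5737 CPM in SYN members against 2739 CPM. Ncl, nucleolin, stood at 854 CPM in ALLO members against 387 CPM in zero cells, and at 901 CPM in SYN members against 366.5 CPM. Nop16, Bysl and Nle1, which act in ribosomal subunit assembly, were 2.45 to 2.60-fold in ALLO and 2.13 to 2.85-fold in SYN, where Bysl and Nle1 had too few UMIs to be measured. The share of UMIs from genes of the finished ribosome's own proteins hardly differed, at 28.0% in ALLO members and 27.0% in ALLO zero cells, and at 27.2% in SYN members and 26.1% in SYN zero cells.

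Polyamine and methyl donor genes were higher too, 6 of 10 measured by at least 1.5-fold in ALLO and 6 of 8 in SYN, with median log2 ratios of 0.78 and 1.06. Beside Srm, Odc1, the ornithine decarboxylase that opens polyamine synthesis, was 2.17-fold (1.82 to 2.58) and 2.32-fold (1.84 to 2.89). Shmt2, the mitochondrial serine hydroxymethyltransferase, was 1.68-fold (1.31 to 2.14) and 2.86-fold (2.27 to 3.57). Sms, the spermine synthase, was 1.14-fold and 1.30-fold. The genes of the pathway thus differed in size.

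Nucleotide synthesis genes were at least 1.5-fold higher in 7 of 14 measured in ALLO and 11 of 13 in SYN, with medians of 0.64 and 0.99. Cad, which starts pyrimidine synthesis, was 2.28-fold (1.66 to 3.09) and 2.03-fold (1.36 to 2.95), and Ppat, which starts purine synthesis, 1.96-fold and 1.92-fold. Dctpp1, which clears modified dCTP, was 1.89-fold and 2.79-fold. Translation factors were higher in 7 of 16 in ALLO and 8 of 16 in SYN, with medians of 0.45 and 0.57. Eif5a, whose protein carries the spermidine-derived hypusine, stood at 798 CPM in ALLO members against 414 CPM in zero cells, and at 865.5 CPM in SYN members against 403 CPM. Eef2, the elongation factor, was 1.07-fold and 1.05-fold. Among tRNA-modifying enzymes and tRNA synthetases, 6 of 18 in ALLO and 8 of 16 in SYN were higher, led by Mettl1 and, in ALLO, by Pus7, a pseudouridine synthase, at 3.63-fold (2.60 to 5.03). Protein folding genes were higher in 9 of 20 in ALLO and 11 of 20 in SYN. Of these Hspd1, the mitochondrial chaperonin, was 1.90-fold (1.67 to 2.15) and 2.46-fold (2.15 to 2.79).

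Energy genes were closer to zero cells than the lists above by median log2 ratio. Glycolysis had medians of 0.26 in ALLO and 0.27 in SYN, and mitochondrial respiration 0.27 and 0.29. Over all measured genes, 5.54% in ALLO and 6.85% in SYN were at least 1.5-fold higher. Glycolysis genes were at least 1.5-fold higher in 2 of 14 measured in ALLO and 2 of 13 in SYN, with Ldha, lactate dehydrogenase A, at 1.96-fold and 1.94-fold. Nuclear genes of mitochondrial respiration were higher in 2 of 16 and 3 of 16, among them Cycs, cytochrome c, at 1.63-fold and 1.66-fold. Of nutrient transporters, 3 of 9 in ALLO and 3 of 7 in SYN were higher, with Slc7a5 first. Its partner Slc3a2, the heavy chain of the same transporter, was 1.15-fold (0.973 to 1.34) and 1.20-fold (0.992 to 1.45), intervals that take in 1.

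NF-kB targets and subunits were higher in part. By at least 1.5-fold, 5 of 22 measured were higher in ALLO and 9 of 21 in SYN, and the medians were 0.38 and 0.49. Icam1, an adhesion molecule, was 2.96-fold (2.47 to 3.54) and 2.61-fold (2.10 to 3.23). Traf1, a signalling adaptor of TNF receptors, was 1.88-fold and 2.41-fold, and Nfkbie, an NF-kB inhibitor, 1.64-fold and 1.68-fold. The subunits lay lower, with Rel at 1.38-fold and 1.59-fold and Rela at 1.04-fold in both.

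In the BCL2 family, the A1 gene Bcl2a1d had the highest ratio among measured genes in ALLO, and Bcl2a1b in SYN, where Bcl2a1d was not measured. Bcl2a1d was 5.46-fold (4.13 to 7.22) in ALLO and, with too few UMIs to be measured, 3.34-fold (2.27 to 4.82) in SYN, and Bcl2a1a had 1 UMI in ALLO and 2 UMIs in SYN members. Bcl2, the survival gene of resting lymphocytes, was 0.917-fold (0.777 to 1.08) and 0.969-fold (0.7996 to 1.17). Mcl1 was 0.976-fold (0.911 to 1.05) and 1.02-fold (0.938 to 1.10). The intervals of Bcl2 and Mcl1 took in 1 in both libraries. Bcl2l1, which encodes BCL-XL, was not measured, with 12 UMIs in ALLO and 6 UMIs in SYN members, at 3.83-fold (1.70 to 8.31) and 2.22-fold (0.742 to 5.57). Of the pro-apoptotic genes, Bid was 1.82-fold (1.42 to 2.31) and 1.63-fold (1.22 to 2.14), Bcl2l11, which encodes BIM, 1.49-fold and 1.36-fold, and Bax 1.06-fold and 1.45-fold. Bak1 was 1.27-fold and 1.21-fold, Bad 0.845-fold and 0.814-fold, and Pmaip1 0.820-fold and 1.14-fold, each with an interval that takes in 1. Bbc3, also not measured, had 9 UMIs in members of each library, at 0.925-fold (0.403 to 1.88) in ALLO and 2.75-fold (1.15 to 5.98) in SYN. Bmf, not measured either, had 6 UMIs in ALLO and 7 in SYN, at 0.375-fold (0.134 to 0.846) and 0.675-fold (0.264 to 1.45).

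Immediate early genes split. The antigen receptor targets Nr4a1, Egr3 and Nab2 were 2.24-fold, 1.74-fold and 2.72-fold in ALLO and 4.38-fold, 2.48-fold and 2.70-fold in SYN. The AP-1 genes Jun and Fos, far more abundant, were 0.772-fold and 0.784-fold in ALLO and 0.720-fold and 0.812-fold in SYN. By at least 1.5-fold, 5 of 16 measured genes were higher in ALLO and 5 of 14 in SYN, with none lower, while the median log2 ratio was -0.10 and -0.08. Summed, the list was 0.854-fold (0.841 to 0.867) and 0.887-fold (0.871 to 0.904). The sum and the count of higher genes thus point in opposite directions.

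Surface activation and costimulation genes were at least 1.5-fold higher in 1 of 14 measured in ALLO and 2 of 14 in SYN, with 0 and 1 lower by that size. Over all measured genes, 5.54% in ALLO and 6.85% in SYN were higher by that size. Cd44, the hyaluronan receptor, was 1.54-fold (1.21 to 1.94) and 2.05-fold (1.56 to 2.66). Cd69, an early activation antigen, stood at 653 CPM in ALLO members against 752 CPM in zero cells, and at 507 CPM in SYN members against 598 CPM. Cd86, a costimulatory ligand, was 1.20-fold (0.897 to 1.58) and 1.41-fold (1.01 to 1.94). Cd83, another activation marker, was compared in cells thinned to equal depth. It was seen in 43.5% (38.6 to 48.5%) of ALLO members and 31.6% (30.1 to 33.1%) of ALLO zero cells. In SYN it was seen in 40.8% (34.95 to 46.8%) of members and 25.9% (24.6 to 27.3%) of zero cells. Cd69 so compared was seen in 42.5% of members and 46.1% of zero cells in ALLO, and in 36.1% and 37.4% in SYN. The list's median log2 ratio was -0.02 in ALLO and 0.22 in SYN, beside -0.04 over all measured genes in each, and its sum 0.947-fold and 0.991-fold. Genes of STAT and cytokine signalling held no measured gene 1.5-fold apart, of 15 in ALLO and 14 in SYN, with Pim1, a STAT-induced kinase, at 1.48-fold and 1.42-fold. Of chemokines and cytokines, 1 of 6 was higher in ALLO and 1 of 5 in SYN, in both Tnf, at 1.54-fold (1.12 to 2.09) and 2.22-fold (1.54 to 3.13). The list's median log2 ratio was 0.33 in ALLO and 0.19 in SYN, while its sum, mostly Ltb, a lymphotoxin gene, was 0.909-fold and 0.921-fold.

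Cell cycle entry genes were higher in part and mitotic genes were rare. Of entry and S phase genes, 5 of 17 in ALLO and 3 of 15 in SYN were at least 1.5-fold higher, with Ccnd2, Cdk6 and Cdk4 among them. Cdk4, the kinase partner of D cyclins, was 1.78-fold (1.55 to 2.04) and 1.73-fold (1.46 to 2.04). Ccnd3, another D cyclin, was 0.702-fold (0.586 to 0.837) and 0.672-fold (0.567 to 0.791). These D cyclins thus ran in opposite directions. Mitosis genes summed to 76.5 CPM in ALLO members against 79.4 CPM in zero cells, and to 111 CPM in SYN members against 102.8 CPM, ratios of 0.963 (0.802 to 1.15) and 1.08 (0.901 to 1.29).

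Germinal centre and plasma cell genes differed little as lists. The germinal centre list summed to 99.2 CPM in ALLO members against 91.6 CPM, and to 106 CPM in SYN members against 99.1 CPM. Bcl6, the germinal centre repressor, was 1.04-fold (0.833 to 1.30) and 1.02-fold (0.789 to 1.29). The other measured gene of the list, the DNA glycosylase gene Neil1, was 0.313-fold in ALLO and 0.493-fold in SYN, which puts the list's median below 0 on the log2 scale while its sum is above 1. Of 13 measured plasma cell genes, 1 was at least 1.5-fold higher in ALLO and 3 in SYN, beside 5.54% and 6.85% of all measured genes. Irf4, a factor of B cell activation and plasma cell differentiation, was 1.20-fold (1.05 to 1.36) and 1.57-fold (1.33 to 1.85), and Xbp1, the secretory factor, 1.16-fold and 1.22-fold.

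The resting state and egress list had the lowest median among lists with 5 or more measured genes. Of 23 measured genes, 8 in ALLO and 10 in SYN were at least 1.5-fold lower and none higher, with medians of -0.40 and -0.51. Klf2, which keeps lymphocytes quiescent and controls egress, stood at 910 CPM in ALLO members against 1373 CPM in zero cells, and at 858 CPM in SYN members against 1314 CPM. Cxcr4, a homing receptor, was 0.633-fold in ALLO and 0.464-fold in SYN. B lineage identity genes had medians of -0.16 and -0.22, with 2 of 21 at least 1.5-fold lower in each library. Class II presentation genes were 0.918-fold in ALLO and 0.920-fold in SYN as a sum, with 0 of 13 and 1 of 13 at least 1.5-fold lower.

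**Figure D3:**
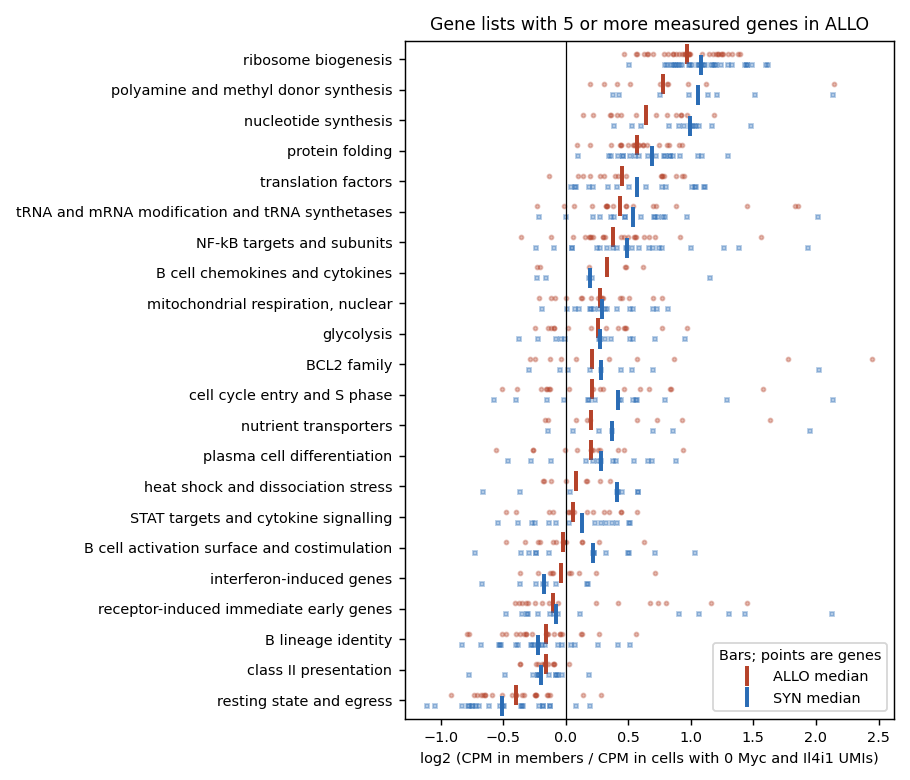
Log2 ratio of CPM in Myc and Il4i1 B cells to CPM in cells with 0 such UMIs (horizontal) for measured genes of lists with 5 or more of them in ALLO; points are genes, bars are list medians, and ALLO lies above SYN in each row. Ribosome biogenesis lies furthest to the right, with medians of 0.97 in ALLO and 1.08 in SYN, and resting state and egress furthest to the left, with -0.40 and -0.51.

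Levels also followed the number of Myc and Il4i1 UMIs in a cell. Ribosome biogenesis summed to 2723, 3100, 3452, 4343.5, 5321 and 6608 CPM in ALLO cells with 0, 1, 2, 3, 4 to 5 and 6 or more UMIs. In SYN the same steps gave 2739, 3217, 3612, 4839, 4739 and 7945 CPM. The climb was steady in ALLO, and in SYN the step at 4 to 5 UMIs did not exceed that at 3. NF-kB genes stayed between 2659 and 2954 CPM in ALLO up to 3 UMIs and reached 4612 CPM (4420 to 4809) at 6 or more. In SYN they lay between 2572 and 2804 CPM up to 3 UMIs and reached 5481.5 CPM (5248 to 5722). Resting state genes went the other way, at 9069 CPM with 0 UMIs and 6172 CPM with 6 or more in ALLO, and at 9773 and 6500 CPM in SYN. Mitosis genes showed no steady course. Median depth also climbed along these steps, being 2869 and 4515 UMIs at the 2 ends in ALLO and 2753 and 4331 in SYN, and its part was not tested.

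**Figure D4:**
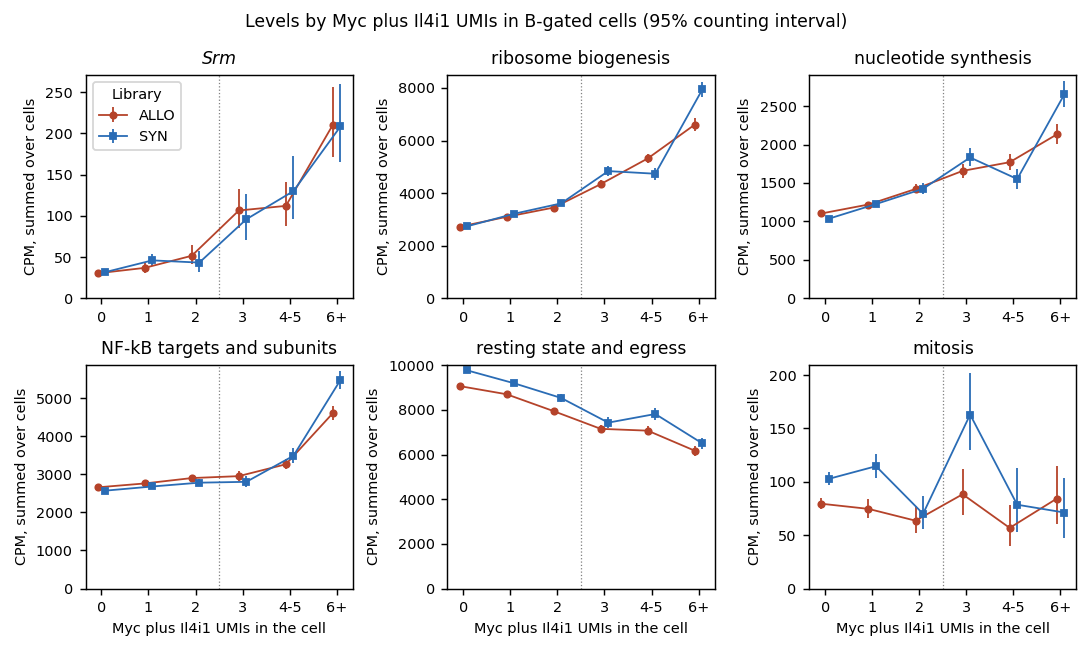
Summed CPM (vertical, from 0) of Srm and 5 gene lists by Myc plus Il4i1 UMIs in a B-gated cell (horizontal), with exact 95% Poisson intervals; circles are ALLO and squares SYN, and members lie right of the dotted line. Ribosome biogenesis reaches 6608 CPM in ALLO and 7945 CPM in SYN at 6 or more UMIs, while resting state and egress has 6172 and 6500 CPM there.

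Nearly all members were unswitched and used many heavy chain segments. A heavy chain class could be assigned in 358 ALLO and 228 SYN members, of which 356 and 226 were IgM/IgD. Switched members were 2 in ALLO, 0.559% (0.0677 to 2.003%), and 2 in SYN, 0.877% (0.106 to 3.13%), beside 0.471% and 0.258% of zero cells. The most used heavy chain variable segment was Ighv1-26 in members and zero cells of both libraries. It held 6.23% (3.85 to 9.46%) of 321 ALLO members with an assigned segment and 5.89% (5.05 to 6.82%) of ALLO zero cells. In SYN it was in 15 of 220 members, or 6.82%, and 7.21% (6.30 to 8.20%) of zero cells. In all 71 segments were seen in ALLO and 61 in SYN members. Variable segments of lambda light chains marked 4.40% (2.59 to 6.96%) of 386 ALLO and 4.10% (2.07 to 7.23%) of 268 SYN members with an assigned light chain.

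Some members held UMIs of Myc only or of Il4i1 only, while 209 ALLO and 145 SYN members held both. At such low counts, a gene with 0 UMIs in a cell may have been missed. The comparison below thus describes counts and need not separate kinds of cell. Myc-only members, with 0 Il4i1 UMIs, were 131 in ALLO and 76 in SYN, and Il4i1-only members 62 and 56. Their depth was close, with medians of 3856 and 3728 UMIs in ALLO and of 3933 and 3623 in SYN. At least 1.5-fold higher in Myc-only cells were 97 of 1838 measured genes (5.28%) in ALLO and 103 of 1726 (5.97%) in SYN, and lower were 105 (5.71%) and 150 (8.69%). Jun, Fos and Ppp1r15a were among the genes on the higher side. Jun stood at 1185 CPM in ALLO Myc-only cells against 754.5 CPM in Il4i1-only cells, and at 1046 CPM in SYN Myc-only cells against 637 CPM. Fos was 1.30-fold (1.13 to 1.51) in ALLO and 1.99-fold (1.64 to 2.42) in SYN, and Ppp1r15a, a stress-induced phosphatase subunit, 1.51-fold and 1.77-fold. Ero1lb, an oxidase of the endoplasmic reticulum, Nme2, a nucleoside diphosphate kinase, and Klf2 followed at 1.28 to 1.87-fold in ALLO and 1.26 to 1.85-fold in SYN.

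Lower in Myc-only cells were Cd72, Grap, Laptm5, Mef2c, H3f3a and Marcksl1. Cd72, an inhibitory coreceptor of B cells, stood at 297 CPM in ALLO Myc-only cells against 478 CPM in Il4i1-only cells, and at 233 CPM in SYN Myc-only cells against 447 CPM. Marcksl1 was 0.482-fold (0.344 to 0.677) and 0.598-fold (0.410 to 0.870), and Grap, an adaptor protein, 0.474-fold and 0.607-fold. Mef2c, a factor that acts downstream of the B cell receptor, was 0.720-fold and 0.616-fold, Laptm5, a lysosomal protein, 0.675-fold and 0.666-fold, and H3f3a, histone H3.3, 0.789-fold and 0.780-fold. Ribosome biogenesis as a sum was 1.17-fold (1.09 to 1.25) and 1.09-fold (1.01 to 1.18) in Myc-only cells. Class II presentation was 0.837-fold (0.818 to 0.857) and 0.906-fold (0.882 to 0.931). NF-kB targets and subunits as a sum were 0.855-fold (0.787 to 0.929) and 0.947-fold (0.862 to 1.04). Their medians had opposite signs, -0.21 over 10 measured genes in ALLO and 0.17 over 9 in SYN. With at least 3 UMIs of Myc alone as the gate, Il4i1 stood at 196 CPM in the 212 ALLO and 296 CPM in the 129 SYN cells so chosen. Gated on Il4i1 alone, Myc stood at 326 CPM in 116 ALLO and 394.5 CPM in 119 SYN cells.

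ALLO and SYN members were close across most genes. The median log2 ratio of ALLO over SYN was -0.06 in members and -0.06 in zero cells. At least 1.5-fold higher in ALLO members were 187 of 6522 measured genes (2.87%) and lower 267 (4.09%). Among zero cells, which hold 11493664 UMIs in ALLO and 11266894 in SYN and so have less counting error, these were 23 (0.353%) and 38 (0.583%).

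Among the genes on the higher side, Hspa1a and Hspa1b, the inducible HSP70 genes, are near-identical copies whose split is uncertain. They stood at 31.6 and 52.7 CPM in ALLO members against 1.58 and 7.09 CPM in SYN members, which rest on 2 and 9 UMIs. In zero cells they had 35.8 and 57.2 CPM in ALLO against 2.49 and 5.33 CPM in SYN, so the difference was also present outside the members. Dnajb1, an HSP40 co-chaperone, was 1.75-fold (1.41 to 2.17) in members and 1.54-fold in zero cells. Irf1, an interferon-induced factor, stood at 188 CPM in ALLO members against 98.4 CPM in SYN members, a ratio of 1.91 (1.55 to 2.36), beside 1.27 (1.18 to 1.36) in zero cells. Ifi27l2a was 1.66-fold (1.45 to 1.91) in members and 1.39-fold in zero cells, and Serpina3g, a protease inhibitor gene, 2.05-fold and 1.66-fold. All of these were also higher in ALLO zero cells. With members chosen by Il4i1 alone, Hspa1b was 3.67-fold in place of 7.44. Cdk5rap1, a mitochondrial tRNA-modifying enzyme, Lars2, a mitochondrial tRNA synthetase, Chd9, a chromatin remodeller, and the Y-linked helicase Ddx3y made up the 10 highest, at 1.504 to 4.69-fold in members and 1.23 to 7.002-fold in zero cells. With members chosen by Myc alone, Cdk5rap1 was 18.01-fold.

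The 10 lowest genes in ALLO members lay nearer to 1 or above it in zero cells. They were ranked by their ratio in members, which held fewer UMIs than zero cells. The ranking itself thus favours values nearer to 1 in zero cells. Nfkbid, an atypical NF-kB inhibitor at chr7:30421732-30428746 on the plus strand, stood at 214 CPM in ALLO members against 376 CPM in SYN members, a ratio of 0.570 (0.498 to 0.652). In zero cells it had 134.7 CPM in ALLO against 98.3 CPM in SYN, a ratio of 1.37 (1.27 to 1.48). Against its own zero cells it was 1.59-fold in ALLO and 3.82-fold in SYN members. Shmt2 was 0.549-fold (0.408 to 0.736) in members and 0.932-fold (0.795 to 1.09) in zero cells. Gfpt1, the entry enzyme of hexosamine synthesis, was 0.432-fold (0.261 to 0.704) and 1.07-fold, and Ganab, a glucosidase of glycoprotein folding, 0.464-fold and 0.886-fold. Bcl2l12, Pip4k2c, Gbp3, Gtf2h2 and Arhgef2 were 0.441 to 0.557-fold in members and 0.849 to 1.01-fold in zero cells, and rest on 29 to 74 UMIs in ALLO and 44 to 89 in SYN. Hist1h2ae, a histone gene, was 0.377-fold, but 1 SYN cell held 34 of its 55 UMIs.

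**Figure D5:**
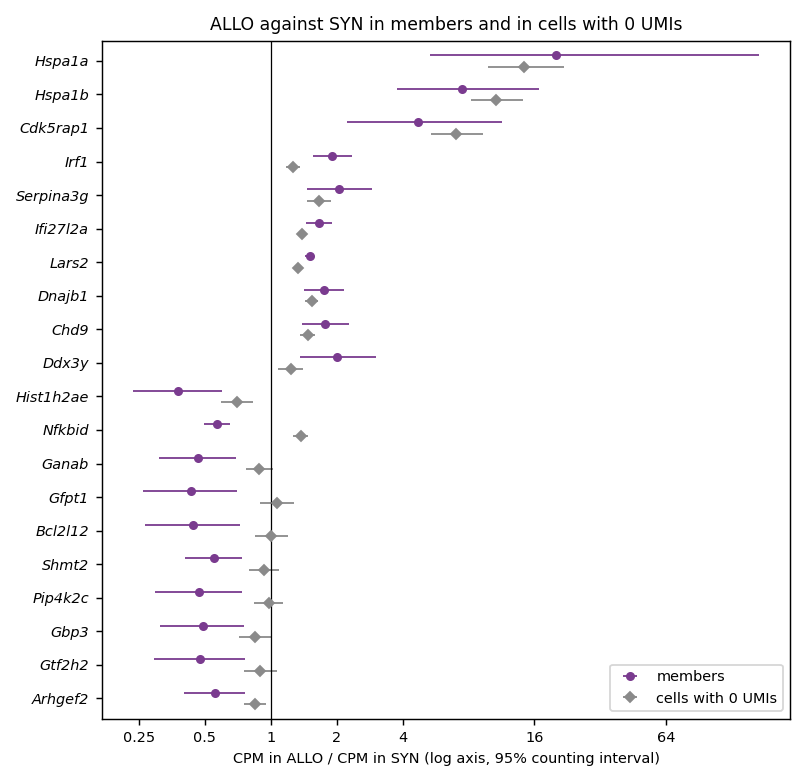
Ratio of CPM in ALLO to CPM in SYN (log axis, exact 95% counting intervals) for the 10 highest and 10 lowest genes among members; circles are members and diamonds cells with 0 Myc and Il4i1 UMIs. The 10 genes at the top are higher in ALLO in both kinds of cell, and Nfkbid is 0.570-fold in members and 1.37-fold in zero cells.

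No list had a median 1.5-fold apart between ALLO and SYN members. Over all measured genes, 2.87% were at least 1.5-fold higher and 4.09% lower in ALLO members. Interferon-induced genes had 2 of 8 at least 1.5-fold higher and a summed ratio of 1.42 (1.31 to 1.55), beside 1.30 (1.26 to 1.34) in zero cells. Heat shock genes had 4 of 8 higher and a sum of 1.22 (1.14 to 1.31), beside 1.40 (1.36 to 1.44) in zero cells. Ribosome biogenesis summed to 0.914-fold (0.887 to 0.943) in members and 0.994-fold (0.979 to 1.01) in zero cells. Cell cycle entry genes had 3 of 15 at least 1.5-fold lower in ALLO members, namely Mcm2, Ccnd3 and Cdk2, at 0.540, 0.609 and 0.649-fold, beside 0.789, 0.583 and 0.846-fold in zero cells. The list's sum was 0.834-fold in members and 0.866-fold in zero cells.

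Markers of other cell types were compared in members and zero cells. T cell genes summed to 43.8 CPM in ALLO members against 36.7 CPM in zero cells, and to 63.0 CPM in SYN members against 77.9 CPM. Only Lck was measured among them, at 2.13-fold and 1.92-fold, and Cd3d, Cd3e and Cd3g are at 0 by the rule. Genes of monocytes, macrophages and dendritic cells summed to 303 CPM in ALLO members against 357 CPM, and to 311 CPM in SYN members against 480 CPM. At least 1 UMI of that list was seen in 63.2% of ALLO members and 58.4% of ALLO zero cells, and in 58.8% of SYN members and 61.7% of SYN zero cells. Neutrophil genes summed to 2.11 CPM in ALLO members against 8.27 CPM in zero cells, and to 3.15 CPM in SYN members against 329 CPM. At least 1 neutrophil UMI was seen in 2.37% of ALLO and 2.56% of SYN zero cells, so the sums differed far more than the shares of cells. As a class, SYN zero cells carried more RNA of these types than ALLO zero cells, and its part in the comparisons was not tested. Among all deposited barcodes 264 occur in both libraries, and 0 of them are members in both.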

How the data were processed

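Single-cell gene expression was measured in 1 ALLO and 1 SYN library of spleen cells. The authors deposited raw UMI counts, whole numbers for each gene in each barcode. Cell Ranger 6.0.2, FastQC and mm10 are named per the submitters' processing notes. Annotation release and alignment options: not given in the sources used here. Depth was 39476214 UMIs in ALLO and 45435231 in SYN, of which members held 1896141 and 1269764, and sets the counting error. Cells that freezing, thawing or the column removed are not seen.

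From the deposited counts, gates were applied per barcode, UMIs of a class were summed and divided by the class total (CPM), and classes were compared by ratios. Intervals at 95% are exact (Poisson, Clopper-Pearson and conditional binomial, scipy 1.17.1, numpy 2.4.6), and a class at 0 was set to a floor of 3 counts in ratios. They treat UMIs as independent and say nothing of variation between animals. Genes of the rule and gates were left out of all counts of genes. Ratios and intervals were run on simulated sums with independent UMIs, which is what the intervals assume. That run cannot show how they hold where UMIs of a gene cluster in a few cells. Groups come from the sample titles, and the labels tie neither library to separate animals.

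The members, gene lists and comparisons were chosen with earlier results of these data known. Named genes were the 15 highest and 12 lowest against zero cells, the 10 highest and 10 lowest of ALLO over SYN members, and the 6 highest and 6 lowest of Myc-only over Il4i1-only cells, ranked by the interval bound nearest to 1 (the less extreme library for the first and last), and up to 4 genes of a list. Immunoglobulin, T cell receptor, mitochondrial, ribosomal protein and predicted genes were not ranked. Outside this rule, Ncl, Sms, Eef2, Slc3a2, Rel, Rela, Cd69, Cd83, Xbp1, Mcm2 and Cdk2 were named after their values were seen.

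Doublets were kept. The automatic threshold of Scrublet (scanpy 1.11.5) marked 0 ALLO and 2 SYN barcodes and so did not work, and cells with the top scores, 0.8% per 1000 barcodes, were removed as an alternative. A heavy chain class or segment needed 3 UMIs and 2 times the next gene. Light chain constant genes were not used. Depth was handled by thinning cells to 1000 UMIs and by weighting zero cells to the members' depth, the second for the 27 ranked genes, gene counts and list medians but not for list sums. Other thresholds, gates, denominators and filters were tried as alternatives. Removing cells with 2 heavy chain segments was an alternative chosen after seeing the data.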

Additional observations from a re-analysis of the deposited data

Results flagged for a closer look

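Nfkbid ran in opposite directions between the libraries in the 2 kinds of cell, at 0.570-fold (0.498 to 0.652) in ALLO over SYN members and 1.37-fold (1.27 to 1.48) in ALLO over SYN zero cells, with intervals that do not overlap and no test of the difference. The highest UMI count of the gene in a single cell was 24 of 406 in ALLO and 30 of 477 in SYN members.

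Summed levels of 4 lists were below 1 in ALLO over SYN members and above 1 in zero cells, which was not tested. Polyamine and methyl donor genes were 0.920-fold and 1.06-fold, nucleotide synthesis genes 0.910-fold and 1.07-fold, protein folding genes 0.937-fold and 1.03-fold, and NF-kB targets and subunits 0.914-fold and 1.03-fold.

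NK and cytotoxic genes were 2.01-fold (1.71 to 2.35) as high in members as in zero cells in ALLO and 0.734-fold (0.611 to 0.875) in SYN, at 109 and 106 CPM in ALLO and SYN members and 54.1 and 145 CPM in ALLO and SYN zero cells. The difference was not tested. It was uneven over the members, with 218 CPM in ALLO and 224 CPM in SYN cells with 3 Myc and Il4i1 UMIs, against 13.8 and 18.95 CPM in those with 4 to 5, and 61.1 and 29.0 CPM in those with 6 or more. A UMI of the list was seen in 6.22% of ALLO members and 5.01% of ALLO zero cells, and in 7.58% of SYN members and 9.42% of SYN zero cells. Red cell genes were 2.97-fold (1.28 to 7.98) in ALLO over SYN members and 0.302-fold in zero cells, on levels of 16.4 and 5.51 CPM in members. A red cell UMI was seen in 1.49% of ALLO and 1.81% of SYN members, and ALLO cells with 3 Myc and Il4i1 UMIs had 32.5 CPM, against 0 in those with 6 or more.

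Myc and Il4i1 UMIs were also seen outside the gates. Barcodes with 3 or more of them and a Cd3 UMI numbered 102 in ALLO and 145 in SYN. Barcodes left out by the marginal zone genes numbered 178 in ALLO and 136 in SYN.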

How the results depend on the processing

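No paired analysis was possible because each group holds 1 library, so the groups share only 1 replicate number, and no replicate could be left out. The share ratio of ALLO over SYN, 1.42, was 1.12 when cells were thinned and the threshold lowered to 1 UMI together, and 1.66 over all cells with 1000 UMIs.

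Counts of genes 1.5-fold apart moved under several settings. For members against zero cells (421 higher and 452 lower in ALLO, 447 and 503 in SYN), a threshold of 5 UMIs gave 763 and 1181 in ALLO and 807 and 1162 in SYN. Myc alone gave 721 and 906 lower in ALLO and SYN, and Il4i1 alone 816 higher and 1307 lower in ALLO and 839 lower in SYN. With no filter on low genes there were 2106 and 1361 in ALLO and 2598 and 1622 in SYN. For ALLO over SYN members (187 higher and 267 lower), these settings gave 599 and 745 at 5 UMIs, 498 and 556 by Myc alone, 592 and 897 by Il4i1 alone, 1036 and 992 with no filter, and 103 and 142 without the 3 exclusion gates. For Myc-only over Il4i1-only cells, 66 in place of 105 were lower in ALLO when 1 UMI of the other gene was allowed, and no filter gave 1592 and 1580 in ALLO and 1292 and 1726 in SYN.

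Lists with a median at least 1.5-fold higher, 3 in ALLO and 4 in SYN, became 6 and 7 at 5 UMIs and by Il4i1 alone, and 7 in SYN without cells with 2 heavy chain segments. Switched members in SYN, 0.877%, became 0% under the stricter assignment and without Scrublet-marked cells. Hist1h2ae in ALLO over SYN members reversed to 1.77 without the exclusion gates and 1.33 by Il4i1 alone. The cause was not tested. Over 12 settings, the reported one included, Srm ranged from 3.47 to 6.27-fold in ALLO and from 3.504 to 6.19-fold in SYN, and Bcl2a1b from 2.61 to 5.54-fold and from 3.095 to 7.41-fold. Among values that moved more were Cdk5rap1 in ALLO over SYN members from 3.40 to 18.01, Hspa1a from 9.004 to 21.1 and Hspa1b from 3.67 to 13.2. Of the genes named by the ranking rule, Hist1h2ae alone changed direction under the settings run.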
